A study of Mus musculus with 9 samples.

Results

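The 10 genes described here encode ligands and receptors of the tumour necrosis factor (TNF) and lymphotoxin system. They are the ligand genes Tnf, Lta, Ltb, Tnfsf9, Tnfsf10 and Tnfsf13b and the receptor genes Tnfrsf1a, Tnfrsf1b, Ltbr and Tnfrsf9. They were chosen by gene symbol, and all 10 were found among the 40879 symbols of the deposited files. Of these, 8 passed the filter on low counts, as did 13251 genes of the whole series, while Lta and Tnfsf13b were too low to be tested.

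Expression was measured with 3' tag sequencing, which reads transcripts from their 3' ends, in conventional type 2 dendritic cells (cDC2s) sorted from mouse bone marrow cultures. The cultures were grown for 9 days with human Flt3L at 100 ng/ml. There were 3 groups of 3 libraries. The first group was wild type (WT) without a treatment in its labels, and the second was wild type with interferon alpha (IFNa), given on day 5. The third, titled A20iKO, had the genotype A20fl/fl x CD11ccre, a floxed A20 gene with a Cre transgene driven by CD11c, which acts in CD11c-expressing cells at large and not in cDC2s alone. The treatment protocol field names IFNa for all 9 libraries, so that the absence of IFNa in the WT and A20iKO cultures rests on the titles and the treatment entry. No age is stated in the sources used here. The design text gives 3 mice per group, but not whether each library came from a separate mouse, so p-values measure the spread between libraries.

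TNF family ligands are trimers that bind receptors of the TNF receptor superfamily on the same or on neighbouring cells. TNF and the lymphotoxin alpha homotrimer bind TNF receptor 1 (Tnfrsf1a), which can signal to NF-kB or to cell death, and TNF receptor 2 (Tnfrsf1b), which signals to survival and NF-kB. Lymphotoxin alpha and beta chains together form a membrane-bound heterotrimer that binds the lymphotoxin beta receptor (Ltbr), an activator of non-canonical NF-kB. A20, the product of Tnfaip3, restrains NF-kB signalling downstream of TNF receptor 1 and other receptors. In lymphoid tissue, signals through the lymphotoxin beta receptor are known to support dendritic cells.

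RefSeq (GRCm38.p6) gave promoter windows for 9 of the 10 genes, in 11 windows of 250 bases before to 50 after a transcript start. Tnfsf9 was the remaining gene. The windows were searched on both strands for the letters GGGA and CC with any 4 bases between them, a form of the NF-kB site, and for GAAA and GAAA with any 2 bases between them, a form of the interferon response element. The parts before the start are shown for Ltb and Tnfrsf1b, which rose in the results below, for Tnf, the neighbour of Ltb on chromosome 17, and for the second start of Tnfrsf9. Capitals mark a match to either set of letters. The Ltb window lies on the + strand at chr17:35194257-35194506, that of Tnf on the - strand at chr17:35202008-35202257, that of Tnfrsf1b on the - strand at chr4:145246871-145247120 and that of Tnfrsf9 on the + strand at chr4:150927749-150927998.
Ltb: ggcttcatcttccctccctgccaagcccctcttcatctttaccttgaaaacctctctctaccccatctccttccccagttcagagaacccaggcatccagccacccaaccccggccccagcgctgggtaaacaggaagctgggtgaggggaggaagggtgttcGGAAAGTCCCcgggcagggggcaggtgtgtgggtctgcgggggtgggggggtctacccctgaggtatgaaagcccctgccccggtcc
Tnf: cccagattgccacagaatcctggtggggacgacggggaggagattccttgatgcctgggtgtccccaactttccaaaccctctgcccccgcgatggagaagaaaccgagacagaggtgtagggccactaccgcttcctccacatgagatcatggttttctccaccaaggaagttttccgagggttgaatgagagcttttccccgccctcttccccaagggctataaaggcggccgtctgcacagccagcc
Tnfrsf1b: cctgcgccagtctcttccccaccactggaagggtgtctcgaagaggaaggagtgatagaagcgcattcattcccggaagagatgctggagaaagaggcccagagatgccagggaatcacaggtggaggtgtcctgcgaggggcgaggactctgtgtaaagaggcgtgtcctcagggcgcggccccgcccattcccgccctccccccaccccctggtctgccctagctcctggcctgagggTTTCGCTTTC
Tnfrsf9: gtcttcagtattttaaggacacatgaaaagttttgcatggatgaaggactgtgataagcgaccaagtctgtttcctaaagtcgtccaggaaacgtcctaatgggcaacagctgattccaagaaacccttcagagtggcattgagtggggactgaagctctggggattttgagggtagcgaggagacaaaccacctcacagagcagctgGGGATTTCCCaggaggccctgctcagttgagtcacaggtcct
The Ltb promoter held GGAAAGTCCC, the reverse form of the NF-kB letters, 78 to 87 bases before the start. The second Tnfrsf9 start had GGGATTTCCC, which matches on both strands, 33 to 42 bases before it. Tnf had GGGACTAGCC 30 to 39 bases after its start and no match in the bases shown. Such letters stood in 3 of the 11 windows and in 20.7% of all 32851 RefSeq windows of the same length, so they are common. The interferon letters were rarer, at 3.44% of all windows. They were present in 2 of the 11 windows, as TTTCGCTTTC within 1 to 10 bases before the Tnfrsf1b start and as GAAAGTGAAA 7 to 16 bases before the second Tnfsf13b start. A match is a description of letters and not evidence of binding, which was not measured here.

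Library totals ranged from 6900598 to 10552756 counts. Levels below are in CPM, counts relative to library size, scaled by TMM factors, a correction for composition, and errors are the SD of n = 3 libraries. All 9 listed cDC2 markers had counts in each group. Their sum, mostly H2-Ab1, was 8723 to 11402 CPM in WT, 6511 to 7428 CPM in the IFNa libraries and 4625 to 5221 CPM in those of A20iKO. They did not move as one, since in A20iKO against WT 7 of the 9 fell, among them Cd209a (331 to 11 CPM), while Sirpa rose (170 to 456 CPM) and Itgax did not pass (91.8 and 133 CPM). The sums of other lists likewise hid members that moved apart, and all values here are in the order WT, IFNa, A20iKO. Macrophage and monocyte markers (8 of 8 with a count in each group) summed to 585 to 694, 997 to 1264 and 2163 to 2295 CPM. With IFNa 3 of them rose, Ly6c2 (26.0, 679 and 741 CPM) the most in CPM, and 2 fell, Lyz2 (364, 129 and 699 CPM) and Adgre1 (92.5, 38.4 and 37.1 CPM). In A20iKO 7 rose and Adgre1 fell. Plasmacytoid dendritic cell markers (7 of 7) summed to 746 to 895, 1069 to 1255 and 965 to 1304 CPM, but Siglech, a main marker of these cells, was 242, 159 and 63.0 CPM and fell in A20iKO, where 5 others rose. Neutrophil markers (7 of 8, Ly6g at 0) summed to 82.1 to 97.1, 268 to 335 and 223 to 330 CPM. Of these, S100a8 (36.5, 121 and 5.99 CPM) and S100a9 (47.8, 157 and 4.85 CPM) rose with IFNa and fell in A20iKO, where Prtn3 (0.594, 7.2 and 174 CPM) and Mpo (1.79, 2.95 and 65.4 CPM) rose. NK cell markers had a count for 2, 4 and 3 of 6 genes, Ncr1 being at 0 in every library, and nearly all of their sum was Klrk1 (39.0, 108 and 19.8 CPM). Stromal markers, led by collagen transcripts, varied within each group and were highest in WT replicate 2 (3796 CPM), IFNa replicate 3 (4255 CPM) and A20iKO replicate 1 (3905 CPM), against 402 to 2102 CPM elsewhere. The fit was therefore also run without these 3 libraries. Tnfaip3, the targeted gene, held 232, 51 and 42 counts in WT, 73, 84 and 74 with IFNa, and 285, 476 and 377 in A20iKO, so it was higher in the libraries labelled as knockout. A 3' tag outside the deleted part checks nothing about the deletion.

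Differences were tested with edgeR's quasi-likelihood test, adjusted by Benjamini-Hochberg over all genes tested, with a threshold of 0.05. These p-values are given below as adjusted p. Of the 8 genes tested, 2 rose with IFNa, Ltb and Tnfrsf1b, while 3.1% of all genes passed in this comparison, 2.4% rising and 0.702% falling. None of the 8 fell by edgeR, nor did any at an unadjusted p under 0.05, by DESeq2 or by limma-voom. At the unadjusted threshold 4 were higher. The share of all genes at that threshold is not given, so such counts, here and below, are not read as a result. In A20iKO against WT, 2 rose, again Ltb and Tnfrsf1b, and 1 fell, Tnfsf9. In that comparison 10.7% of all genes passed, 5.77% rising and 4.91% falling. In A20iKO against IFNa the same 3 genes passed in the same directions, where 5.46% of all genes passed, 2.05% higher and 3.41% lower. Both comparisons with WT share the WT libraries, and both with A20iKO share the A20iKO libraries, so these calls are not independent. The median log2 fold change of the 8 genes was 0.69, 1.20 and 0.21 in the order given, against -0.02, -0.01 and 0.02 over all genes. Tnfsf10, Ltb and Tnfrsf9 met the filter only with libraries of the groups in which they were higher. This median is therefore no support for a shift.

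**Figure D1:**
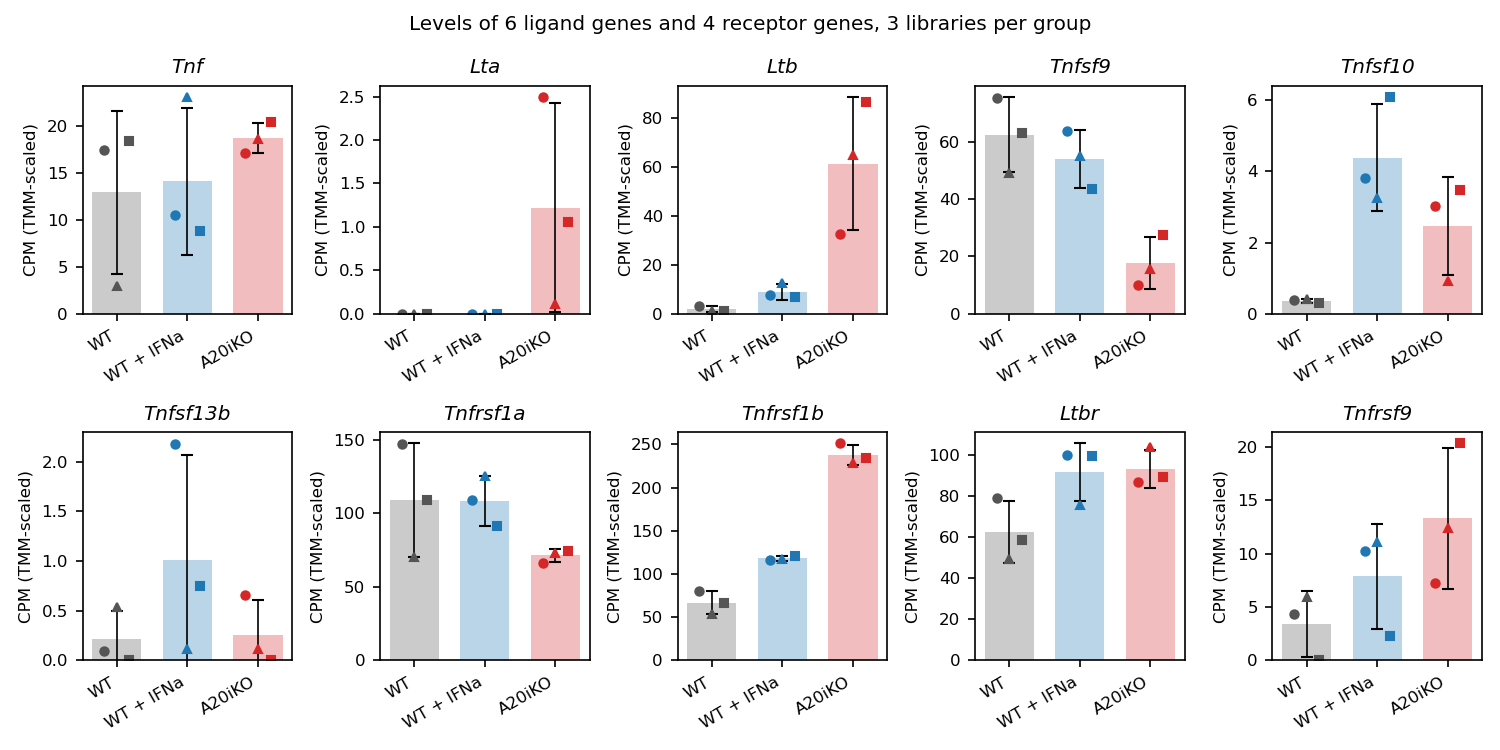
Level of each of the 10 genes in CPM (vertical axis, its own scale for each gene) in WT, WT with IFNa and A20iKO. Points are single libraries (circle, triangle and square for replicates 1, 2 and 3), bars the mean and error bars the SD of 3 libraries. Ltb and Tnfrsf1b are lowest in WT and highest in A20iKO, Tnfsf9 is lowest in A20iKO, and Lta has counts in A20iKO only.

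Among the ligands, Ltb was the one that rose in each comparison. It encodes lymphotoxin beta, the chain that anchors the lymphotoxin heterotrimer in the membrane. Its level in the 3 replicates in order was 3.24, 1.20 and 1.02 CPM in WT, 7.52, 12.7 and 6.84 CPM with IFNa, and 32.3, 64.9 and 86.4 CPM in A20iKO. The 3 groups did not overlap, and the A20iKO libraries spread widely among themselves. The WT libraries held 33, 9 and 10 counts and would not have met the filter on their own. The mean rose from 1.82 ± 1.23 CPM in WT to 61.2 ± 27.2 CPM in A20iKO, 33.7-fold, with a log2 fold change of 5.04 (SE 0.552, adjusted p = 5.83e-05). This call passed in 18 of 18 alternative settings, with log2 fold changes of 4.71 to 5.77, the highest without WT replicate 1. The level in A20iKO was also 6.78-fold above that with IFNa (9.03 ± 3.23 CPM), a log2 difference of 2.76 (SE 0.486, adjusted p = 0.00426), and this too passed in 18 of 18 settings.

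With IFNa, Ltb rose 4.97-fold over WT, by 2.29 on the log2 scale (SE 0.512, adjusted p = 0.0267). That call passed in 10 of 18 settings and was lost without WT replicate 2 (adjusted p = 0.07), WT replicate 3 (0.119), IFNa replicate 2 (0.116) or A20iKO replicate 2 (0.0543). It was also lost without the 3 libraries of most collagen (0.0531), in the fit of the WT and IFNa libraries alone (0.223) and with limma-voom (0.394). The log2 fold change itself stayed between 1.96 and 3.02.

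Ltb is also a gene of lymphocytes, whose markers were therefore set beside it. Summed T cell markers were 17.4, 14.3 and 32.5 CPM in the WT replicates, 41.2, 21.1 and 29.0 with IFNa, and 49.7, 79.3 and 86.4 in A20iKO. Most of this sum was Il7r (16.3 ± 8.09, 20.9 ± 5.54 and 49.8 ± 20.6 CPM). Il7r alone of the 5 T cell markers tested passed, and it rose in A20iKO against WT (adjusted p = 0.0261). The genes of the T cell receptor complex were low and went different ways. Cd3e had 2 counts in WT, 34 with IFNa and none in A20iKO, while Cd3d went from 1 count in WT to 34 in A20iKO and Trac stood at 1.62 CPM in WT and 0.759 in A20iKO. Cd4 was 2.27 CPM in WT and 12.4 in A20iKO, and Cd8a 0.166 and 4.75 CPM. B cell markers summed to 8.63 to 31.3 CPM (WT), 5.99 to 19.5 CPM (IFNa) and 34.6 to 60.6 CPM (A20iKO). Cd79a, a defining part of the B cell receptor, had no count in any library, while Cd79b was 4.2 CPM in WT and 15.7 in A20iKO and Ms4a1 had 3 and 34 counts. Pax5 stood at 0.58 ± 1.00 CPM in WT and 16.9 ± 4.16 in A20iKO and was the B cell marker that passed (adjusted p = 0.046). It met the filter only through A20iKO, with 13 counts in WT, 18 with IFNa and 430 in A20iKO. Whether the Il7r and Pax5 calls held in the alternative settings was not examined. Of the lymphocyte lists, 7 of 8 T cell and 5 of 6 B cell markers had a count in A20iKO. In WT and with IFNa it was 8 of 8 and 5 of 6. The part of these markers in the level of Ltb was not tested. In a bulk library, more cells of a type and more RNA per cell cannot be told apart.

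Lta, which encodes the soluble partner chain lymphotoxin alpha, had no count in any WT or IFNa library. A20iKO replicates 1, 2 and 3 held 19, 1 and 10 counts, or 2.5, 0.113 and 1.05 CPM. Summed over the group, this was 10.6-fold higher than WT and 9.47-fold higher than IFNa, with the groups at 0 set to 3 counts over the group. Without A20iKO replicate 1 these bounds were 5.51-fold and 4.92-fold. They cover the counting error of the groups at 0 only, and not that of A20iKO. Replicate 2, with a single count, could not be told from the other groups. Without the filter, edgeR gave adjusted p = 0.247 against WT and 0.356 against IFNa, so no difference was called.

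Tnf, which lies between Ltb and Lta on chromosome 17 and encodes the inflammatory cytokine itself, did not pass in any comparison. Its level was 17.5, 2.94 and 18.4 CPM in the WT replicates, 10.5, 23.1 and 8.77 with IFNa and 17.1, 18.6 and 20.3 in A20iKO. The 3 groups overlapped. Mean levels were 12.9 ± 8.66 (WT), 14.1 ± 7.81 (IFNa) and 18.7 ± 1.63 CPM (A20iKO). Against WT, the log2 fold change in A20iKO was 0.53 (95% interval -0.73 to 1.78, adjusted p = 0.695), an interval that holds both falls and rises. The low WT value, 22 counts, came from replicate 2, the WT library of most stromal transcripts. Without that library the log2 fold change with IFNa turned from 0.12 to -0.34, and neither value passed.

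The counts of Ltb and Tnf were compared within libraries, a measure that no scaling between libraries can alter. This pair and the receptor pair below were chosen after their values were seen, and no test was made of them. Ltb counts divided by Tnf counts were 0.185, 0.409 and 0.0552 in the WT replicates, 0.719, 0.553 and 0.78 with IFNa, and 1.89, 3.49 and 4.25 in A20iKO. Tnf thus held more counts than Ltb in each library of WT and IFNa, and fewer in each of A20iKO. The ratio shows unequal change of the pair and not that either gene was constant.

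Tnfsf9, which encodes 4-1BB ligand, a co-stimulator of T cells, was the member that fell. It stood at 75.3, 49.1 and 63.1 CPM in WT, 63.7, 55.0 and 43.5 with IFNa, and 9.86, 15.5 and 27.6 in A20iKO. All A20iKO libraries were below all others, while WT and IFNa overlapped. From 62.5 ± 13.1 CPM in WT, the mean fell to 17.7 ± 9.06 CPM in A20iKO, a log2 fold change of -1.82 (SE 0.344, adjusted p = 0.00372) that passed in 18 of 18 settings. Against IFNa (54.1 ± 10.1 CPM) the log2 fold change was -1.61 (SE 0.342, adjusted p = 0.0138), lost without IFNa replicate 1 (adjusted p = 0.0633) or A20iKO replicate 2 (0.0707). With IFNa against WT it was -0.21 (95% interval -0.92 to 0.51).

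Tnfrsf9, the gene of the matching receptor 4-1BB, was low and uneven. Its values were 4.32, 5.89 and 0 CPM in WT, 10.2, 11.1 and 2.23 with IFNa and 7.23, 12.4 and 20.3 in A20iKO. The A20iKO libraries lay above all WT libraries and overlapped with IFNa. The log2 fold change against WT was 1.97 (SE 1.05, adjusted p = 0.306) and did not pass in any of 18 settings. Ligand and receptor therefore had opposite signs of difference between A20iKO and WT, with the ligand alone past the threshold.

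Tnfsf10 encodes TRAIL, a ligand that can induce apoptosis and is known to respond to interferon in many cells. It held 4, 3 and 3 counts in WT, 35, 28 and 41 with IFNa and 23, 8 and 33 in A20iKO, or 0.392, 0.401 and 0.305, then 3.81, 3.24 and 6.09, then 3.02, 0.908 and 3.48 CPM. All libraries of both other groups exceeded all WT libraries. Mean levels were 0.366 ± 0.0534 (WT), 4.38 ± 1.51 (IFNa) and 2.47 ± 1.37 CPM (A20iKO). Neither difference passed in edgeR, at log2 fold changes of 3.53 (SE 1.15, adjusted p = 0.156) with IFNa and 2.71 (SE 1.11, adjusted p = 0.163) in A20iKO. The summed counts with IFNa were 11.7 times those in WT, with an exact 95% interval of 6.09 to 25 that covers counting error only. DESeq2 called the rise with IFNa (adjusted p = 0.019), alone among 18 settings.

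Tnfsf13b, which encodes the B cell survival factor BAFF, had 1, 4 and 0 counts in WT, 20, 1 and 5 with IFNa and 5, 1 and 0 in A20iKO. The 3 groups overlapped. The higher mean with IFNa (1.01 ± 1.06 CPM against 0.211 ± 0.285 in WT) came mainly from replicate 1. Summed over libraries, the counts with IFNa were 5.83 times those in WT (exact 95% interval 2.2 to 19.4, counting error only). Without the filter edgeR gave adjusted p = 0.787, so no difference was called against the spread between libraries.

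**Figure D2:**
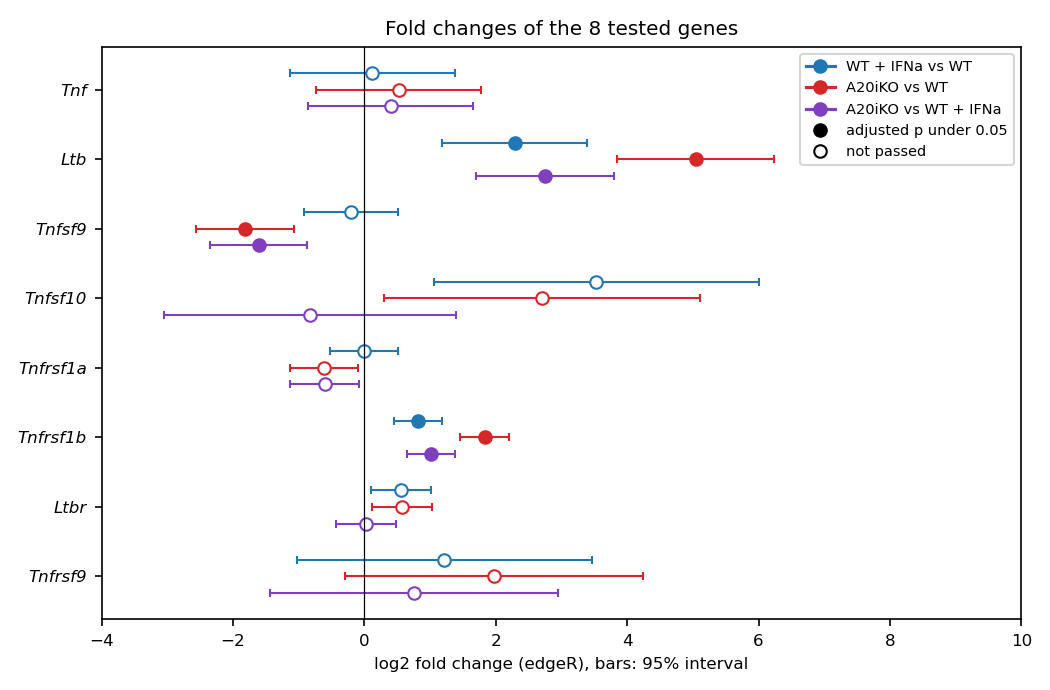
Log2 fold change (horizontal axis) of the 8 tested genes in the 3 comparisons, with 95% intervals from the edgeR fit. Filled points passed the adjusted threshold. Ltb and Tnfrsf1b are filled in all 3 comparisons and Tnfsf9 in both that involve A20iKO.

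Among the receptors, Tnfrsf1b, the gene of TNF receptor 2, rose in both groups. Its level was 79.8, 54.2 and 66.6 CPM in WT, 116, 117 and 121 with IFNa and 251, 228 and 234 in A20iKO. The groups did not overlap, and the libraries of IFNa and of A20iKO lay close together. The mean rose from 66.9 ± 12.8 CPM in WT to 238 ± 12.1 in A20iKO, 3.56-fold, with a log2 fold change of 1.83 (SE 0.172, adjusted p = 1.6e-05). A20iKO also exceeded IFNa (118 ± 2.92 CPM) by 1.01 on the log2 scale (SE 0.168, adjusted p = 0.00277). Both calls passed in 18 of 18 settings. With IFNa against WT the rise was 1.76-fold, a log2 fold change of 0.82 (SE 0.168, adjusted p = 0.016). It passed in 12 of 18 settings and was lost without WT replicate 3 (adjusted p = 0.0695) or IFNa replicate 1, 2 or 3 (0.0602, 0.0622 and 0.0606), without the 3 libraries of most collagen (0.0696) and with the 2 groups alone (0.0509). Among the macrophage and monocyte markers above, 7 of 8 rose in A20iKO against WT and 3 rose and 2 fell with IFNa. Their part in this result was not tested.

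Tnfrsf1a, the gene of the death domain receptor TNF receptor 1, did not rise. It had 148, 70.4 and 109 CPM in WT, 109, 125 and 91.2 with IFNa and 66.5, 73.3 and 74.2 in A20iKO. A20iKO lay below all IFNa libraries and overlapped with WT only through WT replicate 2. The log2 fold change of A20iKO against WT was -0.61 (SE 0.241, adjusted p = 0.142). Without WT replicate 2 it was -0.85 and passed (adjusted p = 0.0166), as it did without the 3 libraries of most collagen (-0.80, adjusted p = 0.0323). Against IFNa it was also -0.61 (adjusted p = 0.209), and with IFNa against WT it was -0.01 (95% interval -0.53 to 0.51).

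Within libraries, Tnfrsf1b counts divided by Tnfrsf1a counts were 0.541, 0.77 and 0.61 in WT, 1.06, 0.936 and 1.33 with IFNa and 3.78, 3.11 and 3.15 in A20iKO. The 3 groups did not overlap in this ratio. Tnfrsf1a thus held more counts than Tnfrsf1b in each WT library, and fewer in each A20iKO library.

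**Figure D3:**
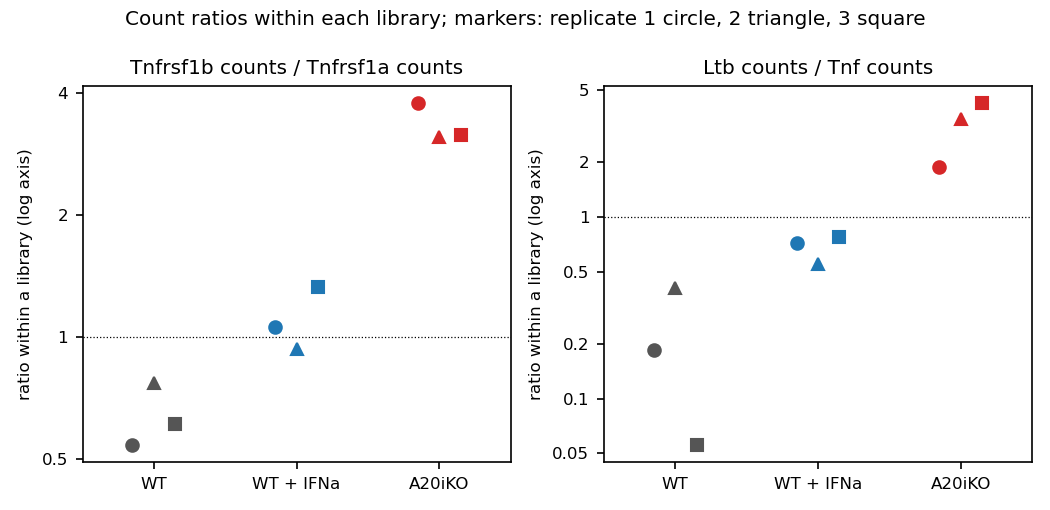
Tnfrsf1b counts over Tnfrsf1a counts (left) and Ltb counts over Tnf counts (right) in each library, on log axes, for WT, WT with IFNa and A20iKO. Every A20iKO library lies above 1, from 3.11 to 3.78 on the left and from 1.89 to 4.25 on the right, and every WT library lies below 1.

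Ltbr, the gene of the receptor for the lymphotoxin heterotrimer, had 79.1, 49.5 and 58.6 CPM in WT, 99.9, 75.6 and 99.4 with IFNa and 86.6, 104 and 89.0 in A20iKO. A20iKO was above all WT libraries, and IFNa overlapped with both. The log2 fold change was 0.55 (SE 0.211, adjusted p = 0.254) with IFNa and 0.58 (SE 0.211, adjusted p = 0.112) in A20iKO, and 0.02 between the A20iKO and IFNa groups (95% interval -0.43 to 0.48). The difference between A20iKO and WT passed without WT replicate 1 (0.79, adjusted p = 0.0392), and in none of the other settings.

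Counting libraries, 6 of the 8 tested genes had no overlap between A20iKO and WT, as did 28% of all genes tested. It was 3 of 8 between IFNa and WT (18.2% of all genes) and 4 of 8 between A20iKO and IFNa (24.6%). Tnfsf10 and Ltb were among the 6 and among the 3, and Tnfrsf9 was among the 6. These genes met the filter only with libraries of the groups in which they were higher. The counts of genes without overlap are therefore no support for a shift. A 3' tag is read from 1 transcript end, so levels were ordered between genes without a correction for length. The order assumes that tags were captured and assigned equally well for each gene, which was not tested. In WT the order was Tnfrsf1a, Tnfrsf1b, Tnfsf9, Ltbr, Tnf, Tnfrsf9, Ltb, Tnfsf10, Tnfsf13b and Lta, and the first 4 overlapped from each to the next. Next neighbours in that order were separated only between Ltbr and Tnf and between Ltb and Tnfsf10. In A20iKO, Tnfrsf1b was first, apart from Ltbr in place 2, and Ltb had moved from place 7 to place 4, overlapping with Tnfrsf1a just above it. With IFNa, Tnfrsf1b, Tnfrsf1a and Ltbr overlapped from each to the next and stood apart from Tnfsf9 below them.

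For each gene that passed in any comparison, the 3 genes of most similar pattern were named by the smallest root mean square difference in centred log2 CPM over the 9 libraries. For Ltb these were Ffar2 (0.389 log2 units), Il1r1 (0.491) and Prrg4 (0.54). Ffar2, a receptor for short-chain fatty acids, stood at 3.06 ± 1.2 CPM in WT, 18.7 ± 4.58 with IFNa and 150 ± 26.1 in A20iKO. For Tnfrsf1b they were Apobec3 (0.158), Ctsd (0.17) and Rest (0.178). Apobec3, an antiviral cytidine deaminase gene, had 112 ± 17.9, 177 ± 5.06 and 370 ± 39.4 CPM in the same order. For Tnfsf9 they were Gm53868 (0.21), Ccr1 (0.218) and Stk10 (0.228). The chemokine receptor gene Ccr1 had 137 ± 7.47, 113 ± 15.4 and 30.5 ± 11.3 CPM.

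The other genes of the system were taken from 7 lists that hold 85 genes, of which 72 were tested. Of these 72, 4 rose with IFNa, 5.56% beside 3.1% of all genes, a share close to the background. In A20iKO against WT, 15 rose and 5 fell, 27.8% beside 10.7% of all genes. Against IFNa 7 rose and 3 fell, 13.9% beside 5.46%. The median log2 fold change of the 72 was 0.31 in A20iKO against WT and 0.20 against IFNa, and it was 0.12 with IFNa when genes without a count in 1 group were set to their bound and genes at 0 in both were left out. Tnfrsf10b, Mlkl and some others of the 72 entered the test only through the groups in which they were high. These shares and medians, and those of the lists below, are therefore no support for a shift.

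Of 12 other TNF superfamily ligands, 5 were tested. Tnfsf8, the CD30 ligand gene, fell from 22.2 ± 5.75 CPM in WT to 5.6 ± 2.98 in A20iKO (log2 fold change -1.99, adjusted p = 0.00637) and was lower than with IFNa (55.9 ± 2.17 CPM, log2 fold change -3.32, adjusted p = 0.000423). With IFNa no ligand passed by edgeR, although 1 had an unadjusted p under 0.05, and DESeq2 and limma-voom called 1 each. For A20iKO, the 5 genes had a median of -0.58 against WT and 0.31 against IFNa on the log2 scale.

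Of 24 other TNF receptor superfamily genes, 18 were tested, and 4 rose and 1 fell in A20iKO against WT, at a median of 1.07. Tnfrsf10b and some others of the 18 entered the test only through A20iKO, where they were high. This count and this median are therefore no support for a shift. Cd40, the receptor for help from T cells, rose from 6.13 ± 6.15 to 96.2 ± 4.91 CPM (log2 fold change 3.97, adjusted p = 0.00169). Fas, a death receptor gene, rose from 1.01 ± 0.728 to 26.3 ± 5.81 CPM (4.72, adjusted p = 0.00242), and Relt from 21.2 ± 1.87 to 48.4 ± 6.55 CPM (1.19, adjusted p = 0.0115). The other two, outside the naming rule and named after their values were seen, were Tnfrsf10b, the mouse TRAIL receptor gene, which rose, and Tnfrsf18, the GITR gene, which fell. Tnfrsf10b had no count in WT and 4.45 ± 1.97 CPM in A20iKO. This was 41.4-fold higher with WT set to 3 counts over the group, and 30.7-fold without A20iKO replicate 3. Tnfrsf18 had 39.3 ± 3.73 CPM in WT and 15.8 ± 6.36 in A20iKO. The Tnfrsf10b call was lost when any single WT or A20iKO library was left out, Tnfrsf18 without A20iKO replicate 1 or 3 and Relt without A20iKO replicate 2. With IFNa against WT, and in A20iKO against IFNa, no receptor passed by edgeR, with 6 and 7 at an unadjusted p under 0.05. No share of all genes stands beside these unadjusted counts, so they are not read as a result. DESeq2 called 1 and 3 and limma-voom 1 and 4.

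Of 20 genes of the TNF receptor 1 signalling complex and of cell death, all tested, 3 rose and 1 fell in A20iKO against WT, at a median of -0.09. Birc2, which encodes the ubiquitin ligase cIAP1, rose from 52.5 ± 6.72 to 123 ± 18.5 CPM (log2 fold change 1.23, adjusted p = 0.000853). Cflar, an inhibitor of caspase-8, rose from 43.1 ± 1.89 to 92.8 ± 5.51 CPM (1.11, adjusted p = 0.000995). Mlkl, the executioner of necroptosis, had no count in WT, 7.11 ± 6.63 CPM with IFNa and 10.1 ± 2.21 in A20iKO. With WT set to 3 counts over the group, these were 68.4-fold and 91.7-fold higher (adjusted p = 0.00372 and 0.00108 by edgeR). IFNa replicate 1 held 134 of the 183 Mlkl counts with IFNa. Without it the bound with IFNa was 29.3-fold, and limma-voom did not call that difference (adjusted p = 0.0723). Traf5, named after its values were seen, fell from 32.1 ± 11.8 to 12.6 ± 6.17 CPM, and its call (adjusted p = 0.0476) was lost in 10 of 18 settings. Mlkl alone passed with IFNa, and Birc2 alone in A20iKO against IFNa (0.72, adjusted p = 0.0413), the latter lost when any single library of those groups was left out.

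Of 13 genes listed as brakes on the pathway, all tested, 5 rose in A20iKO against WT, at a median of 0.72. They were Nfkbia, Traf1, Tnip1, Nfkbib and Tnfaip3 itself, of which Nfkbib was named after its values were seen. Traf1, and Birc3 of the same list, can also support TNF receptor signalling, so the list does not hold brakes alone. The Tnfaip3 call (log2 fold change 1.95, adjusted p = 0.028) was lost without WT replicate 2 (0.0718) or 3 (0.0776) and without A20iKO replicate 2 (0.113) or 3 (0.0645), with the 2 groups alone (0.0614) and without the 3 libraries of most collagen (0.117). Tnip1, which encodes an A20-binding partner, rose from 44.4 ± 12.7 CPM in WT to 168 ± 31.5 in A20iKO (log2 fold change 1.92, adjusted p = 0.000179). The others except Nfkbib also rose against IFNa, 4 in all, Tnip1 by 1.58 on the log2 scale. For Tnfaip3 (2.19, adjusted p = 0.0257) this call was lost without IFNa replicate 1 (0.114), 2 (0.102) or 3 (0.0641), without A20iKO replicate 2 (0.11) or 3 (0.0633) and without the 3 libraries of most collagen (0.0669). With IFNa against WT, Traf1 (1.32, adjusted p = 0.00535) and Nfkbia (0.82, adjusted p = 0.00139) rose. The Traf1 call was lost with limma-voom (adjusted p = 0.0567), with the 2 groups alone (0.0665) and without the 3 libraries of most collagen (0.0512).

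The non-canonical NF-kB arm is used by the lymphotoxin beta receptor, the BAFF receptor and CD40. Of 7 genes listed for it, 3 rose in A20iKO against WT, at a median of 0.90, and the same 3 against IFNa. They were Birc2, Nfkb2 and Relb. The list mixes genes that drive the arm with genes that hold it off, Birc2 among the latter. Its count and median therefore give no direction for the arm. Nfkb2, the precursor of the p52 subunit, had 57 ± 3.54 CPM in WT, 82.7 ± 15.4 with IFNa and 161 ± 13.3 in A20iKO, and its log2 fold change over WT was 1.5 (adjusted p = 0.000159). Relb, its partner subunit, also rose with IFNa (1.39, adjusted p = 0.00423). Of the 5 NF-kB subunit genes, Nfkb2 and Relb were those that passed in both comparisons with A20iKO, and Relb alone passed with IFNa against WT.

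Of 9 genes that control the shedding of TNF or the decay of its mRNA, 1 rose and 2 fell in A20iKO against WT. Zfp36, which encodes tristetraprolin, a protein that promotes decay of Tnf mRNA, fell from 791 ± 164 to 325 ± 39 CPM (log2 fold change -1.28, adjusted p = 0.000238). Its relative Zfp36l2 fell from 136 ± 28.9 to 63.5 ± 12.2 CPM (-1.10, adjusted p = 0.00363). Adam17, the protease that releases TNF from the membrane, rose from 93.1 ± 8.55 to 162 ± 19.7 CPM (0.80, adjusted p = 0.0194), a call lost without WT replicate 3 or A20iKO replicate 1 or 2. Both Zfp36 and Zfp36l2 were also lower than with IFNa, by edgeR, Zfp36 losing this call without A20iKO replicate 2 (adjusted p = 0.0500016, just above the threshold). With IFNa against WT, none of the 9 passed by edgeR, DESeq2 or limma-voom, and 3 had an unadjusted p under 0.05.

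**Figure D4:**
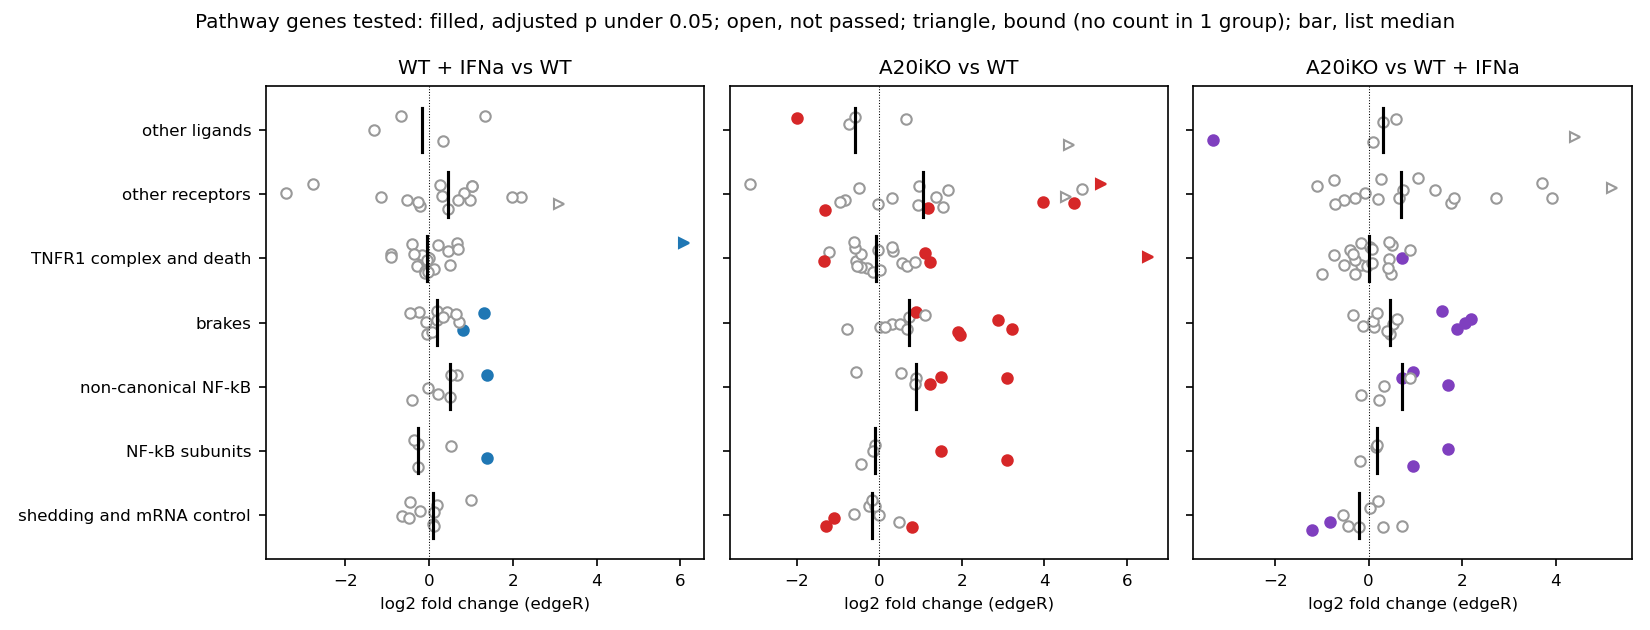
Log2 fold change of the tested genes of 7 pathway lists (rows) in the 3 comparisons (panels). Filled symbols passed the adjusted threshold, and black bars are list medians. Triangles are bounds for genes without a count in 1 group, with that group set to 3 counts. In A20iKO against WT, 5 of 13 genes listed as brakes and 3 of 7 listed for the non-canonical arm are filled, all to the right of 0.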

How the data were processed

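RNA of sorted cDC2s was made into QuantSeq 3' mRNA-Seq FWD libraries, per the labels' protocols. The submitters' processing notes name the build GRCm39 and, as tools, featureCounts 2.0.6, STAR 2.7.10b, fastp 0.23.1 and Bowtie2, with no role for each. Annotation, strandedness and multi-mapping were not stated in the sources used here, so overlapping genes could share reads. The authors deposited raw counts by gene symbol in a table for each library. Sequences come from RefSeq on GRCm38.p6, matched by symbol, and no coordinate of the 2 builds was combined.

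Genes were kept with filterByExpr (minimum count 10, minimum total 15), scaled by TMM and fitted with edgeR 4.0.16 in R 4.3.3 as 1 model of 9 libraries with 6 residual degrees of freedom. The model was also run on counts simulated from its own fit, which cannot show whether the model suits these data. The fit's common coefficient of biological variation came to 0.554. Replicates of a group differed pairwise beyond sampling noise (chi-square per degree of freedom of 14.4 or more). Each library counted as 1 replicate, although such differences do not show that libraries came from separate mice or cultures. Alternatives used DESeq2 1.42.0, limma 3.58.1, other scaling and filters, 2 groups only, a replicate block and left-out libraries. Members and gene lists were chosen with earlier results of these data known. The text names all members, up to 3 genes per pathway list and comparison by smallest p among those passed, and 3 genes of like pattern per member that passed. The likeness used log2 CPM with a prior count of 2.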

Additional observations from a re-analysis of the deposited data

How the results depend on the processing

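Each result was recomputed under 18 alternatives, 9 of them leaving out 1 library. In A20iKO against WT, 3 genes of the set passed in the main analysis and 3 to 4 with 1 library left out. In A20iKO against IFNa it was 3 and 2 to 3. With IFNa against WT the 2 calls became 0 to 2 with 1 library left out, 1 with limma-voom, 1 with the replicate block, 0 with only the 2 groups compared and 0 without the 3 libraries of most collagen. Counts over all genes were 411, 1416 and 723 for IFNa against WT, A20iKO against WT and A20iKO against IFNa. With 1 library left out these ran from 283 to 420, 919 to 1372 and 400 to 875, the lowest without A20iKO replicate 2 in the second and without IFNa replicate 1 in the third. DESeq2 gave 705 for the first and 1143 for the third. Library totals alone moved the median of all genes to -0.15 and 0.12 in these 2 comparisons, and the share of calls that were higher from 77.4% to 60.9% and from 37.5% to 49.4%. Pathway calls with IFNa went from 4 to 8 without the filter and to 7 with DESeq2, and in A20iKO against IFNa from 10 to 17 without the filter and to 16 with limma-voom. With 1 library left out, pathway calls were 4 to 5, 15 to 22 and 8 to 13.

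Signs changed only where no call was made, the cause not being tested. The log2 fold change of Tnf with IFNa ran from -0.42 to 0.46 with 1 library left out and was -0.093 without the 3 libraries of most collagen. That of Tnfrsf1a ran from -0.24 to 0.27, and was 0.027 with limma-voom and 0.020 with the replicate block. That of Ltbr in A20iKO against IFNa ran from -0.097 to 0.12. Replicate numbers are shared between groups, but same-numbered libraries did not uniformly deviate together (correlations of -0.371 to 0.237), so the numbers were not taken to pair them. Between IFNa and WT, replicates 1 (0.237) and 2 (0.0812) exceeded their highest correlation with another number (0.0859 and -0.0183). Replicate 3 did not (-0.0778 against 0.264), so a pairing of these groups was not settled. With the replicate block, 298, 1075 and 535 genes passed. Ltb with IFNa lost its call there (adjusted p = 0.0905), as did Tnfrsf10b (0.131), Traf5 (0.0718) and Adam17 (0.0523) in A20iKO against WT and Birc2 (0.0874) and Tnfaip3 (0.055) against IFNa. Low counts limit Lta, Tnfsf13b and Tnfsf10.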
